A study of Homo sapiens with 12 samples.

Results

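The Krueppel-like factors measured here were 8 genes, KLF2, KLF3, KLF4, KLF5, KLF6, KLF9, KLF10 and KLF11, out of 16489 genes listed for HCC70 cells and 18215 for MDA-MB468 cells. They were picked by symbol, as genes whose ratios to vehicle had already drawn attention in these same libraries, so that the ratios below describe them and are no independent evidence. All 8 were listed in each of the 3 deposited tables. HCC70 and MDA-MB468 are established human cell lines of triple-negative breast cancer (TNBC), a subtype that lacks the oestrogen and progesterone receptors and amplified HER2. RNA was sequenced 24 h after treatment with vehicle, with XY018 at 1.25 or 2.5 µM, with atorvastatin (ATV) at 1.25 µM, or with XY018 at 1.25 µM plus ATV, in both lines. A separate pair of MDA-MB468 libraries compared vehicle with GSK805 at 2.5 µM. XY018 and GSK805 are antagonists of a nuclear receptor, and ATV is a statin, an inhibitor of the cholesterol-synthesis enzyme HMG-CoA reductase. Each of the 12 libraries was the only one of its condition, from cells grown in 6-well plates, so no difference within a line has a replicate check and none was tested.

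Krueppel-like factors share zinc fingers at the end of the protein that bind GC-rich and CACCC-type sequences, and differ in the regions that recruit coactivators or corepressors. KLF2 and KLF4 are known as targets of ERK5 and MEF2 factors, and KLF2 is a well-known statin-induced gene of endothelial cells. KLF4 and KLF5 act in the renewal and differentiation of epithelia, KLF6 is an early response gene, KLF9 responds to glucocorticoids, KLF10 and KLF11 are early genes of TGF-beta signalling, and KLF3 is a repressor that recruits CtBP.

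Of the 8 genes, 6 had an entry in the table of RefSeq promoter windows (GRCh38.p14, from 250 bases before to 50 bases after the annotated start), with 8 windows in all. KLF3 and KLF10 had none. The windows of KLF2, KLF4 and KLF6 are shown because these were the 3 genes whose level after the combination in MDA-MB468 lay past 1.5-fold above the sum of the single treatments. They lie at chr19:16324576-16324875 on the plus strand for KLF2, at chr9:107489720-107490019 on the minus strand for KLF4 and at chr10:3785160-3785459 on the minus strand for KLF6. Capitals mark a MEF2-type site (CTANNNNTAG) in KLF2 and an E-box (CACGTG) in KLF4 and KLF6.
KLF2: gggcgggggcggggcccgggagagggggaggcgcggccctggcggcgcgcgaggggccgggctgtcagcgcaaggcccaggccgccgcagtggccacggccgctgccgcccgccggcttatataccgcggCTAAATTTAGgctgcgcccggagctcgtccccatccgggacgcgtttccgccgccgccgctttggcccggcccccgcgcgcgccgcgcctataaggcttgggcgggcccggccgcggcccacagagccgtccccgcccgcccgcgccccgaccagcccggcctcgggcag
KLF4: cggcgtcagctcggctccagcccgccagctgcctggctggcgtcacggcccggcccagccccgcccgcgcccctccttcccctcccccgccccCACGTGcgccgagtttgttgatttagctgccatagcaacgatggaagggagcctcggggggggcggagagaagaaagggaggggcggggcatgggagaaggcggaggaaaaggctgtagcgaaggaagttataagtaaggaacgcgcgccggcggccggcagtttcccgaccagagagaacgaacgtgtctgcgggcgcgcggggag
KLF6: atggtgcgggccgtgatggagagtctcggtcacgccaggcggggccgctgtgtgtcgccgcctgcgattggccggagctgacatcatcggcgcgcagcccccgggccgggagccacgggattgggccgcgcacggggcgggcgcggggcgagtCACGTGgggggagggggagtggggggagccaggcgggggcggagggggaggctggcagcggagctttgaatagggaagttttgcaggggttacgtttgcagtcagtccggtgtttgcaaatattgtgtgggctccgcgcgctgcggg

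The KLF2 site began 120 bases before the annotated start (offset -120) and held only A and T between its CTA and TAG ends. A site of that stricter form was present in 0.572% of all 35116 windows, and the looser CTANNNNTAG in 2.73%. The E-box began at offset -157 in KLF4 and at -97 in KLF6, and 7.26% of all windows held one. One window of KLF11 also held an E-box, and its other window held a cyclic AMP response element (TGACGTCA, in 1.85% of all windows) and a CTANNNNTAG match with G and C in its centre. GC boxes (GGGCGG) were present in the windows of KLF2, KLF4, KLF6, in both of KLF11 and in 1 of the 2 of KLF5, against 45.0% of all windows. No window of the 6 genes held the nuclear receptor half-site AGGTCA (13.8% of all windows), the sterol-regulatory TCACNCCAC (1.13%), a CArG box (1.29%) or CCACCC (34.3%). Both strands were searched, overlapping matches were kept, and the motifs were chosen after the sequences had been seen. Every strict MEF2 match is also a loose one, and GC boxes can overlap each other.

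Levels were read as FPKM, fragments scaled by transcript length and by the number of fragments mapped, which allows genes to be ranked within a library. In vehicle-treated HCC70 cells KLF5 stood highest at 60.49 FPKM and KLF2 lowest at 0.37, with KLF6 at 24.3, KLF3 at 19.2, KLF10 at 16.75, KLF4 at 14.15, KLF9 at 7.37 and KLF11 at 5.36 FPKM between them. In vehicle-treated MDA-MB468 cells of the XY018 and ATV experiment the order ran from KLF5 at 25.93 FPKM through KLF10 at 13.53, KLF3 at 12.87, KLF11 at 10.7, KLF6 at 9.08, KLF4 at 2.83 and KLF9 at 1.98 to KLF2 at 0.91 FPKM. KLF5 was thus the leading and KLF2 the trailing gene in both lines. Whether neighbours in these orders differ beyond the spread of replicates cannot be said from 1 library each. Depth, estimated from the spacing of the lowest FPKM values, was 9030000 to 10080000 fragments per HCC70 library, 18520000 to 19820000 for MDA-MB468, and 8380000 and 8670000 for the GSK805 pair. Intervals given with ratios are 95% intervals of the counting error at these depths, on the ratio of fragments with nothing added, and hold no biological spread. Intervals of an excess over single treatments, or of a difference between XY018 and GSK805, are centred on values with 0.1 FPKM added. PCR copies are not separated in them.

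**Figure D1:**
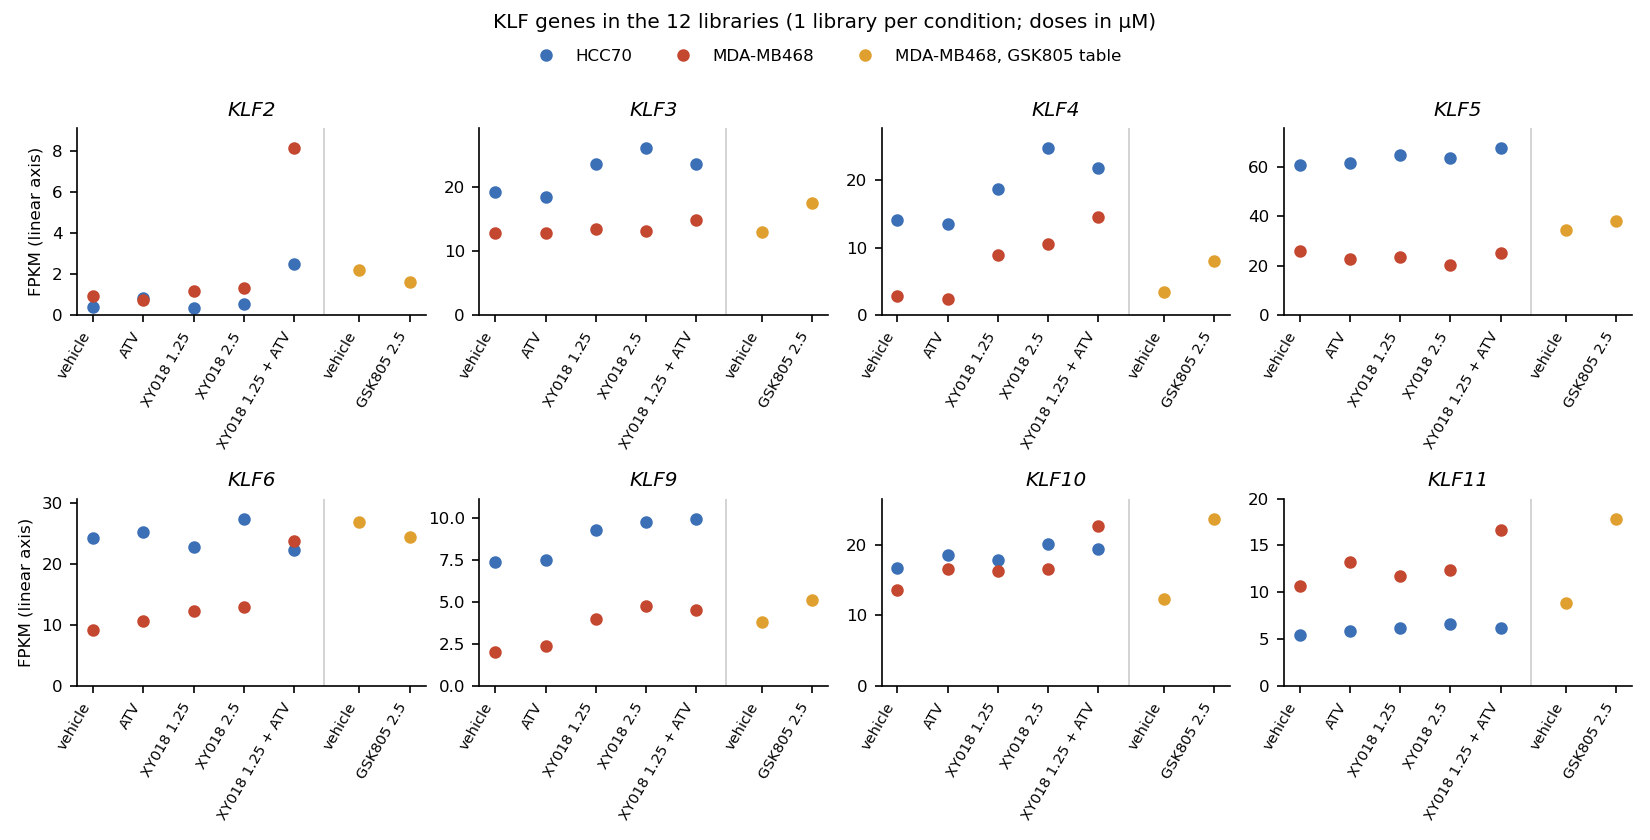
FPKM of each gene (linear axis from 0) in the 12 libraries, 1 point per library, with HCC70 in blue, MDA-MB468 in red and the separately normalized GSK805 pair in orange; doses are in µM. In MDA-MB468 the combination stood at 8.12 FPKM for KLF2 and 23.74 for KLF6, above the other 4 libraries of that experiment.

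KLF2, the flow- and statin-responsive member of the family, lies at chr19:16435637-16439496 (GRCh37, plus strand). In MDA-MB468 it stood at 0.91 FPKM with vehicle, 0.75 with ATV, 1.18 with XY018 at 1.25 µM, 1.33 with XY018 at 2.5 µM and 8.12 with the combination. The combination library was the high one, and the 4 others were all close to 1 FPKM. The log2 ratio of the combination to vehicle was 3.02 (8.14-fold, 0.1 FPKM added to both; interval 2.74 to 3.62), the 23rd highest of 11906 genes compared. In HCC70 KLF2 stood at 0.37 FPKM with vehicle, 0.83 with ATV, 0.36 and 0.55 with XY018 at 1.25 and 2.5 µM, and 2.5 with the combination. Here too the combination was the high library, with a log2 ratio of 2.47 (5.53-fold, interval 1.79 to 3.88), the 14th highest of 11792 genes. KLF2 was under 1 FPKM with vehicle in both lines. It entered the comparison with the combination only because the combination library was high, and could not be counted as lower. With 1 FPKM added in place of 0.1 the combination ratio of KLF2 was 1.35 in HCC70 and 2.26 in MDA-MB468. These HCC70 values rest on about 10 fragments with vehicle and 70 with the combination. With ATV alone KLF2 was at about 23 fragments in HCC70 (log2 ratio 0.98) but stayed under 1 FPKM, the limit for counting a gene as compared, and with ATV alone in MDA-MB468 the ratio was -0.25. Fragments were computed with a transcript of 2820 bases, and with the coding length of 1068 bases, a shorter length chosen after the data were seen, the HCC70 interval widened to 1.14 to 4.65 and that of MDA-MB468 to 2.43 to 3.89.

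KLF4, which maintains differentiation in epithelia and is one of the classical reprogramming factors, lies at chr9:110247133-110252763 (GRCh37, minus strand). It was higher with both doses of XY018, and with the combination, in both lines. MDA-MB468 libraries held 2.83 FPKM with vehicle, 2.39 with ATV, 8.86 with XY018 at 1.25 µM, 10.62 at 2.5 µM and 14.54 with the combination. The vehicle and ATV libraries were thus low and the 3 libraries with XY018 high. The log2 ratios to vehicle were 1.61 at 1.25 µM (3.06-fold, interval 1.39 to 1.92), 1.87 at 2.5 µM (3.66-fold, interval 1.66 to 2.17) and 2.32 with the combination (5.00-fold, interval 2.12 to 2.62). HCC70 libraries held 14.15 FPKM with vehicle, 13.54 with ATV, 18.71 and 24.78 with XY018 at 1.25 and 2.5 µM, and 21.8 with the combination. The order was the same on a smaller scale, except that the higher dose of XY018 stood above the combination. The HCC70 log2 ratios were 0.40 (interval 0.21 to 0.60), 0.80 (0.63 to 0.99) and 0.62 (0.44 to 0.81) in that order. ATV alone gave -0.06 in HCC70 (interval -0.27 to 0.14) and -0.23 in MDA-MB468 (interval -0.58 to 0.10). The step from 1.25 to 2.5 µM XY018 was 0.40 in HCC70 (interval 0.24 to 0.57) and 0.26 in MDA-MB468 (interval 0.084 to 0.44). The annotation has another gene on the opposite strand within KLF4, and reads of the 2 cannot be told apart unless strand was used, which is not given in the sources used here. The same holds for KLF11, and for KLF3 with KLF3-AS1.

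KLF6, an early response gene, lies at chr10:3818188-3827473 (GRCh37, minus strand). In MDA-MB468 it stood at 9.08 FPKM with vehicle, 10.63 with ATV, 12.2 and 12.94 with XY018 at 1.25 and 2.5 µM, and 23.74 with the combination. The combination was far above the 4 other libraries, with a log2 ratio of 1.38 to vehicle (2.6-fold, interval 1.27 to 1.5) against 0.42 and 0.51 for the XY018 doses and 0.23 for ATV. In HCC70 the 5 libraries lay between 22.33 FPKM with the combination and 27.42 with XY018 at 2.5 µM, with vehicle at 24.3. The HCC70 combination ratio was -0.12 (interval -0.25 to 0.0031), so that the pattern of MDA-MB468 was not seen there.

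KLF9, a repressor induced by glucocorticoid and thyroid hormone, lies at chr9:72999520-73029573 (GRCh37, minus strand). MDA-MB468 libraries held 1.98 FPKM with vehicle, 2.34 with ATV, 3.96 and 4.72 with XY018 at 1.25 and 2.5 µM, and 4.48 with the combination. All 3 libraries with XY018 were near or above a doubling of vehicle, and ATV added to XY018 made little further difference. The log2 ratios were 0.96 (interval 0.75 to 1.25), 1.21 (1.01 to 1.49) and 1.14 (0.93 to 1.42), and the combination exceeded XY018 at 1.25 µM alone by 0.17 (interval -0.022 to 0.38). HCC70 libraries held 7.37 FPKM with vehicle, 7.49 with ATV, 9.25 and 9.77 with the XY018 doses and 9.95 with the combination. The HCC70 ratios of the XY018 libraries, 0.32, 0.40 and 0.43, had the same sign and stayed below 1.5-fold.

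KLF10 and KLF11, the TGF-beta-inducible repressors that recruit Sin3 complexes, behaved alike across the XY018 and ATV libraries. KLF10 in MDA-MB468 stood at 13.53 FPKM with vehicle, 16.53 with ATV, 16.33 and 16.59 with XY018 at 1.25 and 2.5 µM, and 22.6 with the combination. KLF11 stood at 10.7, 13.18, 11.69, 12.33 and 16.63 FPKM in the same order of libraries. For both genes vehicle was the lowest library and the combination the highest. The combination ratios were 0.74 for KLF10 (1.67-fold, interval 0.61 to 0.87) and 0.63 for KLF11 (1.55-fold, interval 0.51 to 0.76). In HCC70 KLF10 lay between 16.75 FPKM with vehicle and 20.08 with XY018 at 2.5 µM, and KLF11 between 5.36 with vehicle and 6.55 with XY018 at 2.5 µM. The log2 ratios of the 2 genes differed by 0.082 (root mean square over the 8 XY018 and ATV comparisons), the least of all 28 pairs among the 8 genes. The points of this measure share their vehicle library within a line.

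KLF3 and KLF5 were past 1.5-fold in none of the 9 comparisons. KLF3 lies at chr4:38665818-38703138 (GRCh37, plus strand). It stood at 19.2 FPKM with vehicle, 18.39 with ATV, 23.62 and 26.09 with XY018 at 1.25 and 2.5 µM and 23.66 with the combination in HCC70, so that the 3 libraries with XY018 were the high ones. Its largest HCC70 ratio was 0.44, at 2.5 µM (interval 0.33 to 0.56). In MDA-MB468 it lay between 12.83 FPKM with ATV and 14.89 with the combination. KLF5, which sustains proliferation of basal breast cancer cells, lies at chr13:73629114-73651679 (GRCh37, plus strand) and lay between 60.49 and 67.49 FPKM in the 5 HCC70 libraries. In MDA-MB468 it stood at 25.93 FPKM with vehicle, 22.61 with ATV, 23.45 and 20.44 with XY018 at 1.25 and 2.5 µM and 25.06 with the combination. Vehicle was the highest of the 5, and the lowest ratio was -0.34, with XY018 at 2.5 µM (interval -0.45 to -0.24). Its ratio with XY018 at 1.25 µM was 0.099 in HCC70 and -0.14 in MDA-MB468.

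**Figure D2:**
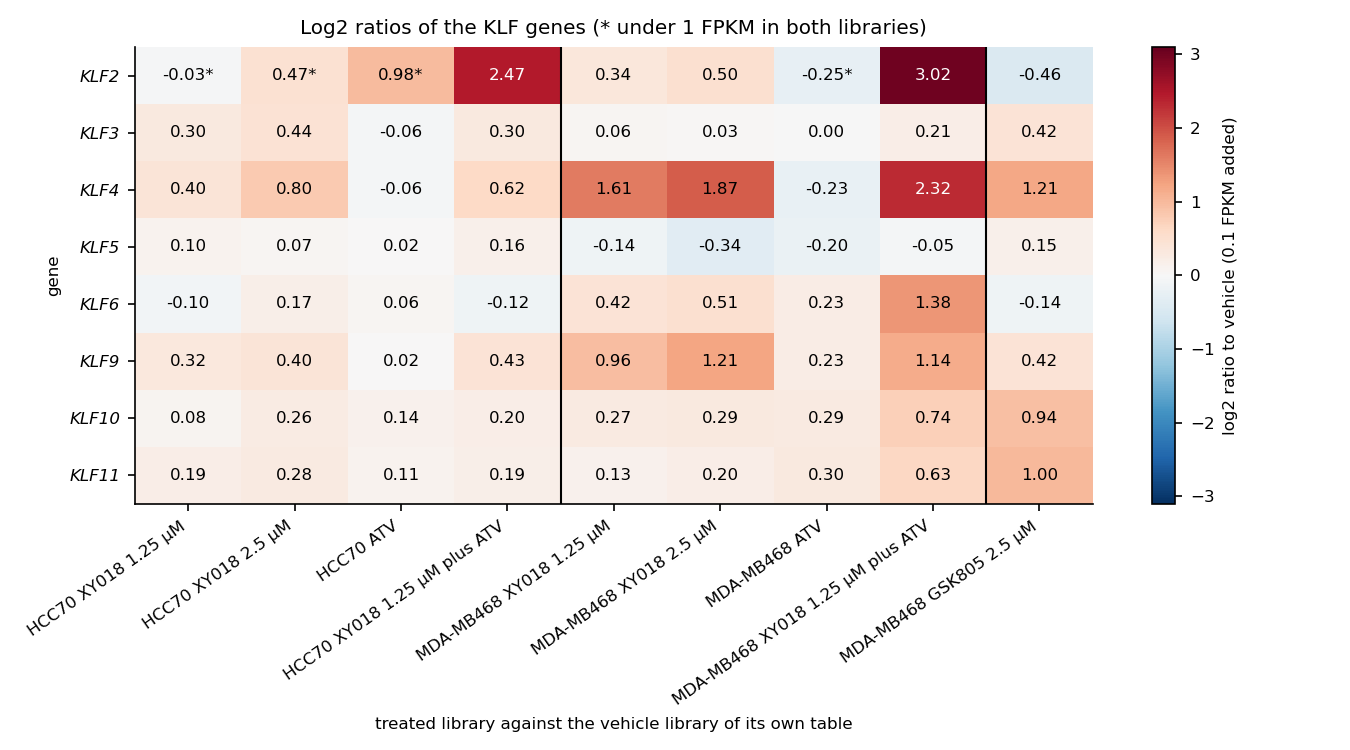
Log2 ratio (0.1 FPKM added) of each gene, in rows, in the 9 treated libraries against the vehicle library of the same table, in columns; red is higher and blue lower than vehicle, and an asterisk marks a gene under 1 FPKM in both libraries. The values run from -0.46 for KLF2 with GSK805 to 3.02 for KLF2 with the combination in MDA-MB468.

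A gene was counted where it differed by at least 1.5-fold from vehicle and reached 1 FPKM in at least 1 of the libraries compared. None of the 8 was counted as lower in any of the 9 comparisons. In HCC70, XY018 at 1.25 µM gave 0 of 7 compared as higher (1.93% of all genes higher, 2.64% lower), and 2.5 µM gave 1 of 7, KLF4 (2.62% and 3.25%). ATV gave 0 of 7 in HCC70 (2.21% of all genes higher, 1.32% lower), and the combination gave 2 of 8, KLF2 and KLF4 (4.38% and 2.94%). In MDA-MB468, XY018 at 1.25 µM gave 2 of 8, KLF4 and KLF9 (9.73% of all genes higher, 8.38% lower), and 2.5 µM gave the same 2 genes (14.1% and 14.4%). ATV gave 0 of 7 (1.37% higher, 0.794% lower) and the combination 6 of 8, all but KLF3 and KLF5 (13.1% and 12.1%). GSK805 gave 3 of 8, KLF4, KLF10 and KLF11 (17.6% higher, 16.6% lower, or 13.5% and 12.6% among the 12059 names also in the other MDA-MB468 table). Since the genes were selected on these ratios, nothing is read from the distance between their shares and those of all genes. KLF2 was the gene left out where 7 were compared. In every XY018 and ATV comparison that included KLF2, it reached 1 FPKM only in the treated library, so it could not be counted as lower. The closest to the 1.5-fold line, a log2 ratio of 0.585, were KLF4 with the HCC70 combination at 0.62 and KLF11 with the MDA-MB468 combination at 0.63 on the upper side, and KLF6 with XY018 at 2.5 µM in MDA-MB468 at 0.51 on the lower. The median log2 ratio over the 8 genes with the MDA-MB468 combination was 0.94, beside 0.0051 over all genes, and with the HCC70 combination 0.25 beside -0.014.

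The combination was then set against the sum of the log2 ratios of XY018 at 1.25 µM and of ATV, a comparison that shows where a joint treatment departed from adding up. In MDA-MB468, 3 genes exceeded that sum by at least 1.5-fold, KLF2, KLF4 and KLF6 (2.73% of all genes above the sum by that margin, 3.16% below). For KLF2 the single ratios were 0.34 and -0.25, the sum 0.093 and the combination 3.02, an excess of 2.93 (interval 2.22 to 3.64), the 7th highest of 11994 genes. For KLF4 the singles were 1.61 and -0.23 and the excess 0.94 (interval 0.58 to 1.31). For KLF6 the singles were 0.42 and 0.23 and the excess 0.73 (interval 0.56 to 0.90). The other 5 genes lay between -0.056 for KLF9 and 0.29 for KLF5. In HCC70 only KLF2 passed the line (3.33% of all genes above, 2.87% below), with an excess of 1.51. Its interval ran from 0.055 to 2.97, and with the coding length from -0.86 to 3.89, so that whether it lay away from 0 turned on the length assumed for KLF2. KLF4 in HCC70 had an excess of 0.28 (interval 0.020 to 0.55). The difference between the lines was not tested.

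**Figure D3:**
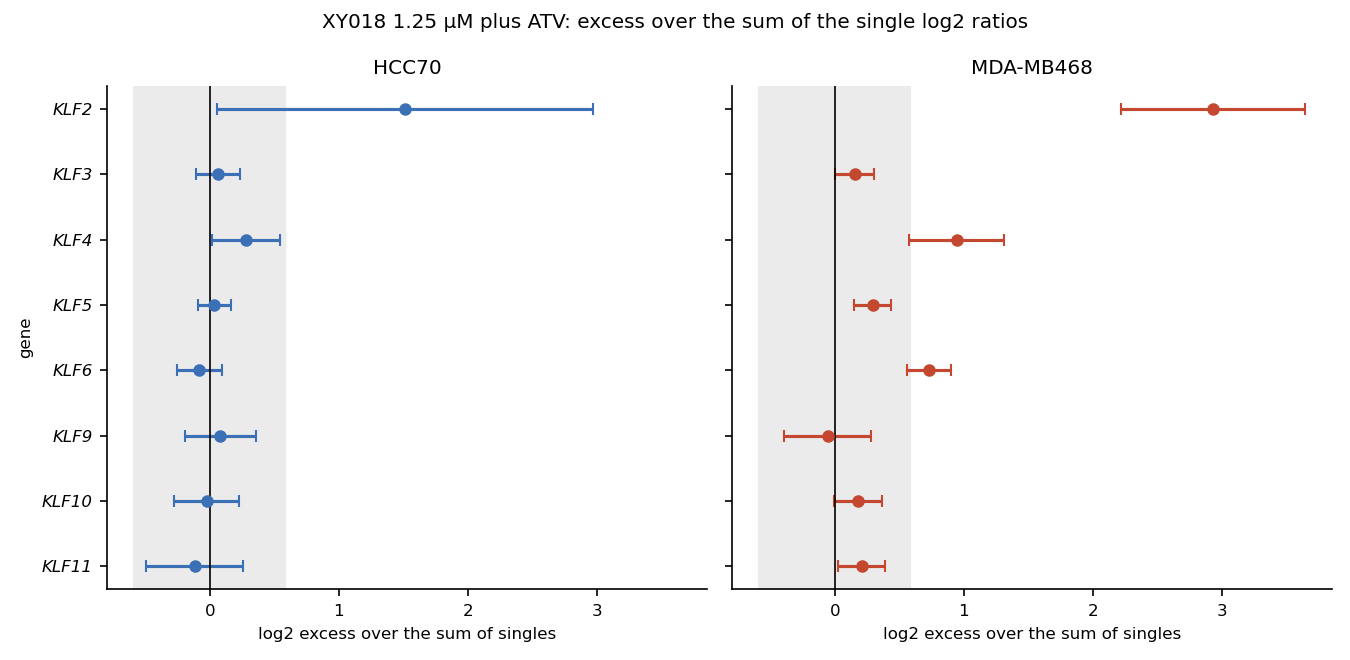
Excess of the log2 ratio of XY018 at 1.25 µM plus ATV over the sum of the 2 single log2 ratios, per gene, in HCC70 (left) and MDA-MB468 (right); bars are 95% counting intervals and the grey band is less than 1.5-fold either way. KLF2 at 2.93, KLF4 at 0.94 and KLF6 at 0.73 lie to the right of the band in MDA-MB468, and KLF2 at 1.51 in HCC70 with a bar that reaches 0.055.

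XY018 and GSK805 were compared at 2.5 µM and 24 h in MDA-MB468, each against its own vehicle. With GSK805 KLF4 went from 3.42 FPKM in vehicle to 8.04 in the treated library, KLF10 from 12.3 to 23.7, KLF11 from 8.86 to 17.9, KLF9 from 3.77 to 5.09, KLF3 from 13.0 to 17.4, KLF5 from 34.3 to 38.1, KLF6 from 26.8 to 24.4 and KLF2 from 2.21 to 1.58. KLF4 was thus higher with both antagonists, at a log2 ratio of 1.87 with XY018 and 1.21 with GSK805 (interval 0.86 to 1.64). KLF10 and KLF11 had higher ratios with GSK805, at 0.94 and 1.00 against 0.29 and 0.20 with XY018. With GSK805 they ranked 2021st and 1854th highest of 19951 genes. KLF9 was at 0.42 with GSK805 against 1.21. KLF2, KLF5 and KLF6 had opposite signs, at -0.46, 0.15 and -0.14 with GSK805 against 0.50, -0.34 and 0.51 with XY018, and the GSK805 interval of KLF2 included 0 (-1.16 to 0.16). Against the vehicle of the XY018 and ATV table, KLF2 with GSK805 was at 0.74 and KLF6 at 1.41, so that the signs of both turned to that of XY018, while KLF5 was at 0.55. With transcript lengths, the counting interval of the difference lay away from 0 in all 8 pairs. The differences ran from -0.96 for KLF2 (interval -1.77 to -0.15) to 0.80 for KLF11 (interval 0.56 to 1.04). With the coding length KLF2 had about 25 fragments with XY018 and 19 with its vehicle, and 12 with GSK805 and 16 with its vehicle. The KLF2 interval would then be wider, was not recomputed, and may include 0. These intervals hold no spread between cultures, and no pair could be tested.

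The 2 MDA-MB468 vehicle libraries belong to tables normalized separately on different annotations. KLF6 stood at 26.8 FPKM in the vehicle of the GSK805 pair and at 9.08 in that of the XY018 and ATV experiment, so that the untreated level of the former was above the 23.74 of the combination. The log2 difference of the vehicles was 1.55 for KLF6, 1.20 for KLF2, 0.90 for KLF9, 0.40 for KLF5, 0.27 for KLF4, 0.011 for KLF3, -0.13 for KLF10 and -0.27 for KLF11, with a median of 0.56 over the 11952 genes compared. Relative to that median, 47.8% of these genes and 4 of the 8 members were past 1.5-fold, KLF2, KLF6, KLF10 and KLF11. Annotation, scaling and culture cannot be told apart in this difference. Relative to the median it was exceeded by 4 of the 5 MDA-MB468 treatment ratios for KLF4 and for KLF9, by 2 of 5 for KLF5 and KLF10, by 1 of 5 for KLF6 and KLF11, by 1 of 4 for KLF2 and by 0 of 5 for KLF3.

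**Figure D4:**
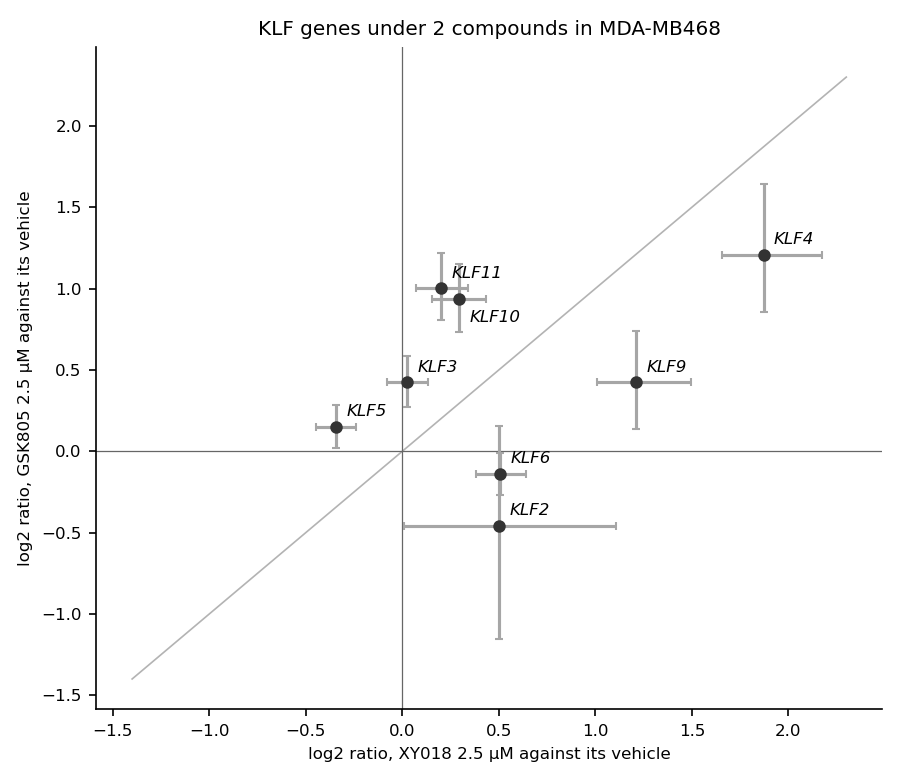
Log2 ratio to vehicle with GSK805 (vertical axis) against XY018 (horizontal axis), both at 2.5 µM in MDA-MB468, 1 point per gene; bars are 95% counting intervals and the line marks equal ratios. KLF4 lies at 1.87 and 1.21, KLF10 and KLF11 lie above the line, and KLF2 and KLF6 lie to the right of 0 and below it.

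Among the other 9 KLF genes, KLF15, a metabolic regulator, stood in MDA-MB468 at 2.41 FPKM with vehicle, 1.84 with ATV, 5.6 and 6.83 with XY018 at 1.25 and 2.5 µM and 4.24 with the combination, and was listed at 0 in all HCC70 libraries. XY018 alone thus stood above the combination. KLF13 was past 1.5-fold higher in MDA-MB468 with XY018 at 2.5 µM and with the combination, at log2 ratios of 0.63 and 0.62. KLF7 was past it with the combination there, at 0.72, KLF16 with ATV in HCC70, at 0.59, and KLF12 was lower with XY018 at 2.5 µM in MDA-MB468, at -0.63. With the MDA-MB468 combination 3 of 6 other KLF genes compared were past 1.5-fold higher and 0 lower (13.1% and 12.1% of all genes). Their median was 0.48. KLF14 was past it on the lower side with GSK805. Of the related SP genes, 0 of 5 were past 1.5-fold higher and 2 lower with the MDA-MB468 combination (13.1% and 12.1% of all genes). The 2 were SP6 at -0.67 and SP4 at -0.69, and the median over the 5 was -0.29. SP9 was past 1.5-fold higher with XY018 at 1.25 µM in MDA-MB468, at 0.32 FPKM with vehicle and 1.03 with XY018, 0.79 at 2.5 µM and 0.29 with the combination. It was also past the line upward with GSK805, at 0.35 FPKM with vehicle and 1.37 with GSK805. With GSK805 SP2 and SP6 were lower, so that 1 of 6 SP genes was higher and 2 lower (17.6% and 16.6% of all genes). SP1, the founding member of that family, stayed between 17.16 and 20.9 FPKM in the 10 XY018 and ATV libraries.

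The genes whose 8 ratios were most like those of KLF4, among 7891 genes at 5 FPKM or above, were HERPUD1, NDRG1 and SQSTM1, with root mean square differences of 0.18, 0.22 and 0.22. HERPUD1, a component of the degradation machinery of the endoplasmic reticulum, had ratios of 1.89, 2.08, -0.084 and 2.26 in MDA-MB468 with XY018 at 1.25 µM, at 2.5 µM, with ATV and with the combination. Those most like KLF9 were ANKZF1, PELI2 and NFKB2, at 0.10, 0.11 and 0.12. The 8 ratios of a gene share 2 vehicle libraries.

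In the ERK5 and MEF2 module 4 of 8 genes were past 1.5-fold higher and 1 lower with the MDA-MB468 combination (13.1% and 12.1% of all genes), with a median of 0.61. MEF2D stood at 16.76 FPKM with vehicle and 28.78 with the combination, and MEF2B at 14.95 and 27.13. MEF2C was lower, at 3.25 and 1.24 FPKM. With XY018 at 2.5 µM there were 5 of 8 higher and 1 lower (14.1% and 14.4% of all genes). With GSK805 there was 1 higher, MAP2K5, and 1 lower, MEF2B, which stood at 6.96 FPKM with vehicle and 2.54 with GSK805, opposite in sign to its ratios with XY018 (17.6% and 16.6% of all genes). MEF2C was at a ratio of -0.20 there and MEF2D at 0.48. None of the 6 genes compared in HCC70 passed the line in its 4 comparisons, where 1.32% to 4.38% of all genes did in a given direction. None of 8 did with ATV alone in MDA-MB468 (1.37% of all genes higher, 0.794% lower). With shares this small, 0 counted in a short list says little.

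Of the 11 TGF-beta components and early targets, 9 were compared with the MDA-MB468 combination, with 1 past 1.5-fold higher and 2 lower (13.1% and 12.1% of all genes). TGFB2, a ligand, stood at 24.07 FPKM with vehicle, 16.6 with ATV, 9.43 and 5.75 with XY018 at 1.25 and 2.5 µM and 5.04 with the combination, and TGFBI, an extracellular matrix target, at 1.34 with vehicle and 3.44 with the combination. In HCC70 TGFB1 was past the line upward with ATV, XY018 at 2.5 µM and the combination, at 0.61, 0.73 and 0.83, and TGFB2 was past it downward with ATV and with the combination, at -0.88 and -1.38. With GSK805, where KLF10 and KLF11 were past 1.5-fold, 2 of 11 were past it upward (SKIL and SMAD4) and 2 downward, beside 17.6% and 16.6% of all genes.

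Of the glucocorticoid receptor and its target genes, 7 were compared with the MDA-MB468 combination, with PER1 and DUSP1 past 1.5-fold higher and 1 lower (13.1% and 12.1% of all genes). PER1, a circadian repressor, stood at 5.74 FPKM with vehicle, 18.92 and 26.67 with XY018 at 1.25 and 2.5 µM and 29.65 with the combination. DUSP1, a MAP kinase phosphatase, stood at 3.47, 7.88, 9.77 and 13.02 FPKM in the same order, and with ATV alone it was past 1.5-fold lower, at 2.19 FPKM. With GSK805 neither gene was past the line, with ratios of 0.014 for PER1 and -0.20 for DUSP1. The receptor gene NR3C1 and the target SGK1 were past it upward there. These were 2 of 7 compared, and 0 were lower (17.6% and 16.6% of all genes). ERRFI1, a feedback inhibitor of EGFR, was lower in MDA-MB468, at 53.89 and 21.36 FPKM with vehicle and combination. With XY018 at 2.5 µM there, ERRFI1 and FKBP5 were the 2 lower of 7, beside 2 higher (14.4% and 14.1% of all genes). None of 7 was past the line in any HCC70 comparison, where 1.32% to 4.38% of all genes were past it in a given direction.

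No gene of the 10 corepressors and acetyltransferases that bind KLF proteins was past 1.5-fold in any of the 9 comparisons. Of these, 9 or 10 were compared each time. The shares of all genes past 1.5-fold in a given direction ran from 0.794% to 17.6% over the same comparisons. Among 8 ubiquitin ligases that act on KLF proteins, FBXO32 was past 1.5-fold higher in 3 HCC70 comparisons. It stood at 6.87 FPKM with vehicle and 11.36, 13.77 and 12.84 with XY018 at 1.25 µM, at 2.5 µM and with the combination. Each time it was the only 1 of 8 higher, beside 1.93%, 2.62% and 4.38% of all genes, and 0 were lower (2.64%, 3.25% and 2.94%). SMURF1 was past 1.5-fold higher in MDA-MB468 with the combination, at 0.72, as 1 of 8, and 0 were lower (13.1% and 12.1% of all genes). There FBXO32 exceeded the sum of its single ratios by 0.69, as 1 of 8 past 1.5-fold above the sum. The share of all genes was 2.73% above and 3.16% below.

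Of 13 genes known as KLF targets, 7 were compared with the MDA-MB468 combination, with 1 past 1.5-fold higher (CDKN1A, the cell-cycle inhibitor p21, at 1.49) and 4 lower (13.1% and 12.1% of all genes), and a median of -0.69. FGFBP1, a carrier of fibroblast growth factors and a known KLF5 target, stood at 39.22 FPKM with vehicle, 83.31 with ATV, 6.86 and 2.65 with XY018 at 1.25 and 2.5 µM and 2.52 with the combination. KRT4, a keratin of differentiating epithelium and a known KLF4 target, stood at 15.87 FPKM with vehicle and 1.54 with the combination, opposite to KLF4 itself. It was also opposite with XY018 alone, at 3.54 and 1.43 FPKM at 1.25 and 2.5 µM, and with GSK805, at a ratio of -1.68. With ATV alone KRT4 stood at 10.24 FPKM, a ratio of -0.63, with the sign of KLF4 at -0.23 (interval -0.58 to 0.10). In HCC70 KRT4 stood at 1.67 FPKM with vehicle, 3.03 and 1.88 with XY018 at 1.25 and 2.5 µM, 1 with ATV and 0.63 with the combination, so that its ratios with XY018 alone, 0.82 and 0.16, had the sign of KLF4 and that with the combination, -1.28, did not. IGFL1, a small secreted protein, was past the line on the lower side in 7 of the 8 XY018 and ATV comparisons, with HCC70 at 1.69 FPKM with vehicle and 0.97 with the combination, and MDA-MB468 at 1.54 and 0.92. In HCC70 4 of 10 were higher with the combination (PTGES, S1PR1, THBD and TNFAIP2) and 3 lower (4.38% and 2.94% of all genes). S1PR1, a known KLF2 target of endothelial cells and lymphocytes, stood there at 5.33 FPKM with vehicle, 7.21 with ATV, 9.02 and 10.21 with XY018 at 1.25 and 2.5 µM and 12.89 with the combination. In MDA-MB468 S1PR1 was at 0.1 FPKM or less in those 5 libraries, but in the GSK805 pair it stood at 0.044 FPKM with vehicle and 1.45 with GSK805, and was the only 1 of 8 targets compared there past 1.5-fold higher, beside 2 lower (17.6% and 16.6% of all genes).

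At least 11 of 12 epithelial markers reached 1 FPKM in each table. ESR1 lay between 0.37 and 0.67 FPKM in the 10 XY018 and ATV libraries but at 1.77 to 5.67 in the GSK805 pair. PGR was at 0 in all MDA-MB468 libraries and was not listed for HCC70. ERBB2, the HER2 gene, was not low, at 25.3 to 28.8 FPKM in HCC70. It lay at 25.6 to 35.4 FPKM in the MDA-MB468 XY018 and ATV libraries and at 35.2 to 57.7 in the GSK805 pair. The markers of leukocytes, endothelium and fibroblasts summed to 82.6 to 107 FPKM in HCC70, of which CD68 gave 76.6 to 98.8, and to 9.99 to 25.8 in the MDA-MB468 XY018 and ATV libraries. In those MDA-MB468 libraries CD68 gave 3.83 to 16.35 FPKM and COL1A1 4.96 to 8.49. The endothelial markers PECAM1, VWF and CDH5 reached at most 0.25, 0.02 and 0.03 FPKM there. PECAM1 lay between 0.93 and 1.21 FPKM in HCC70. CDH5 reached 2.28 FPKM in 1 HCC70 library. In the GSK805 pair the leukocyte, endothelial and fibroblast markers summed to 16.0 to 29.6 FPKM, of which COL1A1 gave 10.4 to 17.2 and CD68 5.54 to 12.4.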

How the data were processed

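RNA from 2 TNBC lines, 12 libraries with 1 per condition, was measured by RNA-seq after 24 h. Per the submitters' processing notes and methods, libraries were made from total RNA with the TruSeq kit and processed with BWA, Bowtie and Cufflinks on GRCh37/hg19; versions are not given in the sources used here. The authors deposited 3 tables of FPKM values, normalized separately and with no counts. The unit was read from the values and methods, as the headers name none. The HCC70 and MDA-MB468 tables list RefSeq genes, and the GSK805 table lists names of a wider annotation; the entry with the highest mean was kept for repeated names. Every column of values was used.

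Log2 ratios were computed as log2 of (FPKM + 0.1) against vehicle of the same table. A gene was compared where it reached 1 FPKM in at least 1 library, and counted past 1.5-fold. With 1 library per condition no difference within a line could be tested, and a fit of treatment effects common to both lines was not run. Depth was estimated by finding the number of fragments at which low FPKM values, times the MANE transcript length, became whole; 95% intervals are exact (Clopper-Pearson) for ratios and normal (1.96 standard errors) for excesses and differences, and cover counting error only. The depth estimate and the 1.5-fold count were run on simulated libraries modelled on the HCC70 and MDA-MB468 vehicles, with transcript lengths taken as known. The intervals, the excess and the GSK805 pair were not covered by that simulation. Fold changes of low genes are understated by the added 0.1.

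The 8 members and the pathway lists were chosen with earlier results of these data known. Named were all members in every library, the other KLF and SP genes past 1.5-fold in any of the 8 XY018 and ATV comparisons, and up to 4 genes per pathway list that were past it in at least 3 of the 8, those with the largest mean absolute log2 ratio first; other names were chosen after their values were seen. Genes most like a member were sought for members past 1.5-fold in at least 3 of the 8, as the 3 with the smallest root mean square difference. Alternatives were pseudocounts of 1 and 0.01, no filter or 5 FPKM, median centring, a 2-fold threshold, the other vehicle for GSK805 and linear additivity. Promoter sequences came from RefSeq (GRCh38.p14). Python 3.11.15, pandas 2.3.3, numpy 2.4.6 and scipy 1.17.1 were used. Results on the receptor targeted by the antagonists are not reported here.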

Additional observations from a re-analysis of the deposited data

Results flagged for a closer look

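KLF5 was flagged because the same treatment, XY018 at 1.25 µM, gave opposite signs in the 2 lines with both counting intervals away from 0. The log2 ratio was 0.099 in HCC70 (interval 0.0072 to 0.19) and -0.14 in MDA-MB468 (interval -0.25 to -0.044). Both are far below 1.5-fold, and the difference between the lines was not tested.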

How the results depend on the processing

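Of 69 recomputed counts of members past 1.5-fold, 59 were within 1.5 times the reported count and 10 moved. With a 2-fold threshold the count became 0 for XY018 at 2.5 µM in HCC70 (from 1), 1 for the HCC70 combination (from 2), 1 for XY018 at 1.25 µM in MDA-MB468 (from 2) and 1 for the MDA-MB468 excess (from 3). With a filter at 5 FPKM it became 1 for the HCC70 combination, 1 for each dose of XY018 in MDA-MB468 (from 2) and 0 for the HCC70 excess (from 1). These follow from fewer genes passing. With no filter it became 1 for ATV in HCC70 (from 0), since KLF2 was then included. Against the vehicle of the XY018 and ATV table the GSK805 count became 6 (from 3); the cause was not tested. Of 288 single log2 ratios recomputed, 274 stayed within their counting interval, 14 moved (9 with a pseudocount of 1 FPKM and 5 with the other vehicle), and no ratio past 1.5-fold changed sign. With 1 FPKM added, the moved ratios were those of KLF2, KLF4 and KLF9, with the KLF2 excess in MDA-MB468 at 2.19 in place of 2.93. With the other vehicle, KLF2 and KLF6, both under 1.5-fold with GSK805, changed sign to 0.74 and 1.41.

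No paired analysis was possible because each condition had 1 library and the labels give no replicate numbers, and for the same reason no library could be left out. Counting error limits KLF2 most, at about 10 fragments in HCC70 vehicle. With the coding length of KLF2, an alternative chosen after the data were seen, the lower limit of its HCC70 excess was -0.86 in place of 0.055. Restricting the GSK805 comparison to names of the other MDA-MB468 table, also chosen afterwards, gave 13.5% of genes higher in place of 17.6%.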
